A study of Mus musculus with 6 samples.

Results

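Starburst amacrine nuclei were studied in single-nucleus RNA libraries of mouse retina. All 6 libraries came from untreated wild-type mice of the C57BL/6J strain, aged 3 months in 3 libraries and 18 months in 3. The series title speaks of fatty acid supplements, but none of the libraries used here is labelled as supplemented. The labels do not say whether each library is a separate animal, so p-values measure the spread between libraries. A nucleus was taken as starburst when it had at least 2 of the 6 markers Chat, Slc5a7, Slc18a3, Slc35d3, Fezf1 and Megf10, one of them being Chat, Slc5a7 or Slc18a3. It was left out when it had any UMI (a counted RNA molecule) of Lhx1 or Slc6a9, or more than 1 UMI in all over 7 markers of glia, ganglion, bipolar and cone cells. Of the 55230 nuclei with at least 300 genes and at most 5% mitochondrial UMIs, 229 met this rule. They numbered 47, 11 and 10 in the 3-month libraries and 62, 74 and 25 in the 18-month libraries, in the order of replicates 1, 2 and 3 that is kept for all values below.

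Starburst cells are the cholinergic amacrine cells of the retina. They release both acetylcholine and GABA, lack an axon, and send starburst-shaped dendrites into a pair of thin bands of the inner plexiform layer, one for light onset and one for light offset. Each dendritic branch responds best to motion away from the cell body, and the GABA it releases onto ganglion cells underlies direction selectivity. Acetylcholine is made by the enzyme choline acetyltransferase (Chat), loaded into vesicles by the transporter Slc18a3 and rebuilt from choline taken up by Slc5a7. Megf10, a transmembrane receptor with EGF repeats, keeps neighbouring starburst cells apart, Isl1 and Sox2 are transcription factors of the type, and Fezf1 and Rnd3 are known from the ON and OFF kinds.

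The genes for acetylcholine synthesis and vesicle loading share a locus, which limits what their counts can show. Slc18a3 lies wholly inside the span of Chat on the same strand (Chat at chr14:32408203-32465989 and Slc18a3 at chr14:32462438-32464850, minus strand, mm10), so UMIs of the locus cannot be split between them with certainty. Slc5a7 stands apart, at chr17:54273590-54299034 on the minus strand. The 250 bases before the RefSeq start of each gene are printed because these genes chose the nuclei and because Isl1 and Sox2, described below, are DNA-binding factors of the same cells. The letters are from RefSeq on GRCm38.p6, 5′ to 3′ on the gene's strand, at chr14:32465910-32466159 for Chat, chr14:32464851-32465100 for Slc18a3 and chr17:54299035-54299284 for Slc5a7, all minus strand. The RefSeq start of Chat lies inside the span of Chat given above, so part of its window falls within that span. Capitals mark TAAT, the core that homeodomain proteins such as Isl1 bind, searched on both strands (ATTA on the printed strand).
Chat: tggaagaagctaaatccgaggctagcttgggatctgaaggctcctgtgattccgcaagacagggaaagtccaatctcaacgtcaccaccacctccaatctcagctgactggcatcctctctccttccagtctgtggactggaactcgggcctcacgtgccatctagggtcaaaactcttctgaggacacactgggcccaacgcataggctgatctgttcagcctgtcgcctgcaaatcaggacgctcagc
Slc18a3: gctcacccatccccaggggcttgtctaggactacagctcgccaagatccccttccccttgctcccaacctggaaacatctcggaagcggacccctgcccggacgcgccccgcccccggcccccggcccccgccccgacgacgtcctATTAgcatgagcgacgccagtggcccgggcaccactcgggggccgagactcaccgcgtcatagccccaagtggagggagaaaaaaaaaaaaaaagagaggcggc
Slc5a7: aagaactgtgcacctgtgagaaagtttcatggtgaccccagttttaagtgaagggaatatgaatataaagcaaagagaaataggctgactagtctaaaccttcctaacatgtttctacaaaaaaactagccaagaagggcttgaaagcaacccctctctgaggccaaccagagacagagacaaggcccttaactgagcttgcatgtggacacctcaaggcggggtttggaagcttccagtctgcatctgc
TAAT occurred only in the Slc18a3 window, and ACAAAG, a SOX-type motif also searched on both strands, in none of these windows. Over 32851 RefSeq windows of this length, 54.9% held TAAT and 16.5% held ACAAAG. GC content was 54.8% before Chat, 66.0% before Slc18a3 and 45.6% before Slc5a7. These matches describe the letters of the windows and nothing about binding.

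The rule itself used the following levels, which are given without a test. Chat was detected in 196 of the 229 nuclei, Slc5a7 in 188, Slc18a3 in 65, Megf10 in 43, Slc35d3 in 4 and Fezf1 in 3. Chat stood at 612, 339 and 278 CPM (UMIs of the gene scaled by the total over the library's starburst nuclei) at 3 months, and 526, 341 and 494 CPM at 18 months. Slc5a7 stood at 569.9, 362 and 339 CPM at 3 months, and 413, 377 and 239 CPM at 18 months. Both levels overlapped between the ages. Chat and Slc5a7 were found together in 163 nuclei. In rod bipolar nuclei, which should lack them and were chosen by Trpm1 and Prkca, Chat had a UMI in 5.42% of 2862 nuclei and Slc5a7 in 5.87%, at library medians of 1975.5 to 6999.5 UMIs per nucleus against 1730 to 4144 in starburst nuclei. Megf10, found in 18.8% of starburst nuclei, had a UMI in 8.77% of rod bipolar nuclei. It had one in 44.0% of Müller glia nuclei, at library medians of 2260 to 10964.5 UMIs. Of the 229 nuclei, 189 had exactly 2 markers and 40 had more, and 789 further nuclei had 1 marker too few. Chat and Slc18a3 counted as 2 markers although their UMIs cannot be split with certainty, and 45 of the 229 nuclei held both.

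Genes that the rule did not use checked the label. Isl1 had a UMI in 126 of 229 starburst nuclei (55.0%) and in 5.58% of 1236 other GABAergic amacrine nuclei, which were chosen by at least 2 UMIs of Gad1 or Gad2 and none of the 6 starburst markers. Isl1 is also a bipolar gene, present in 42.0% of the rod bipolar nuclei. The summed level of 8 bipolar markers, 2 of them limited by the rule, was 362 to 1040 CPM in starburst nuclei and 665 to 1482 CPM in the other GABAergic nuclei, lower in starburst nuclei in 6 of 6 libraries. Gad1, an enzyme of GABA synthesis, had a UMI in 55.9% of starburst nuclei and in 27.7% of rod bipolar nuclei. Gad2 was found in 6.11% of starburst nuclei, below the 14.6% of rod bipolar nuclei, so its share is read as background. Sox2 was found in 11.8% of starburst nuclei against 1.78% of the other GABAergic nuclei and 6.18% of rod bipolar nuclei. Tfap2b, an amacrine transcription factor, was found in 62.9% of starburst, 46.0% of the other GABAergic and 36.1% of rod bipolar nuclei. Pax6 was found in 56.3%, 57.6% and 44.0% of them, so it did not set starburst nuclei apart. The level of Tfap2b did not either. It was 332 ± 99.4 CPM in starburst and 339 ± 82.1 CPM in the other GABAergic nuclei (SD, n = 6 libraries each), higher in starburst nuclei in 3 of 6 libraries. With Rnd3, these 7 genes summed to 835 to 1515 CPM in starburst and 1363 to 1986 CPM in the other GABAergic nuclei. The sum was higher in starburst nuclei in 1 of 6 libraries, and it holds Gad1 and Gad2, which chose the comparator.

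One library stood apart in these checks. In 18-month replicate 3, Isl1 was found in 3 of 25 starburst nuclei (12%, exact 95% interval 2.55 to 31.2%), against 54.1 to 81.8% in the other libraries. Gad1 was found there in 32% of nuclei against 44.7 to 90.9%. The library also had the highest summed levels in starburst nuclei of 8 ganglion cell markers (801 CPM, against 22.6 to 349 elsewhere) and of 6 glycinergic amacrine markers (921 CPM, against 113 to 339), although Slc6a9, the glycine transporter, was at 0 by the rule. Both sums were also highest there in the other GABAergic nuclei. In them the ganglion sum was 622 CPM (239 to 339 elsewhere) and the glycinergic sum 967 CPM (284 to 588 elsewhere). The starburst nuclei of this library were the shallowest, with a median of 1730 UMIs. The numbers of genes past the threshold against the other GABAergic nuclei, with age and in the interaction are therefore also given without this library. Other values below, such as shares, levels and list counts, include it unless stated.

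Nuclei within the rule differed among themselves in genes outside it. The 163 nuclei with both Chat and Slc5a7 had a UMI of Megf11 in 95.7%, of Col25a1 in 94.5% and of Isl1 in 63.2%, at a median of 3006 UMIs. In the other 66 nuclei these shares were 62.1%, 71.2% and 34.8%, at a median of 2460.5 UMIs. Across the marker threshold, Megf11 was found in 97.5% of the 40 nuclei with 3 or more markers (median 3164.5 UMIs) and in 83.6% of the 189 with 2 (median 2823 UMIs). It was found in 30.3% of the 789 nuclei that had 1 marker too few, at a median of 1448 UMIs, and in 7.93% of the other GABAergic nuclei at 2548 UMIs. The shares were not thinned to a common depth. Fezf1 and Rnd3, the ON and OFF genes, were found in 3 and 6 nuclei and in none together. Rnd3, at 2.62%, was below its share in the other GABAergic nuclei (4.61%), so the ON and OFF kinds could not be told apart at this depth.

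**Figure D1:**
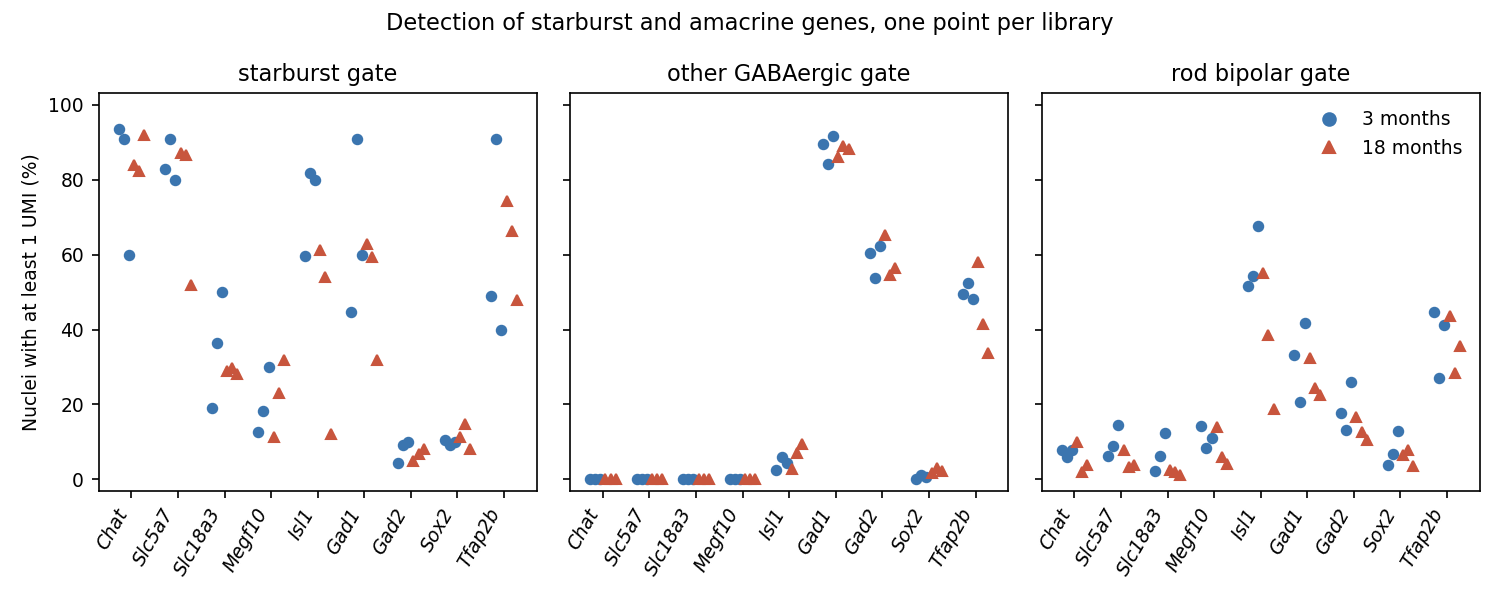
Percent of nuclei with at least 1 UMI of each gene (vertical axis) in starburst, other GABAergic amacrine and rod bipolar nuclei, 1 point per library, circles for 3 and triangles for 18 months (panel titles call each kind of nucleus a gate). The first 4 genes are set by the rule in the starburst and other GABAergic panels. Gad1 and Gad2 chose the other GABAergic nuclei, so their shares in that panel are set as well. Isl1 lies at 54.1 to 81.8% in 5 starburst libraries and at 12% in 18-month replicate 3.

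The first comparison asked how starburst nuclei differed from the other GABAergic amacrine nuclei of the same retinas, in genes that neither choice of nuclei used. UMIs were summed per library, giving 32406 to 284044 UMIs per starburst sum and 246474 to 1108662 per comparator sum. Of 7379 genes tested, 533 were higher in starburst nuclei (7.22%) and 620 lower (8.4%), 15.6% in all, by edgeR's quasi-likelihood test with a term for library (Benjamini-Hochberg adjusted p at or below 0.05). Without 18-month replicate 3 there were 557 higher and 723 lower. With at least 3 markers required, there were 176 and 374.

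Megf11, Isl1 and Sox2, of the list of starburst identity, were higher in starburst nuclei. Megf11, the close relative of Megf10 that also acts in the spacing of starburst cells, had 1754, 1283 and 398 normalised CPM (CPM with TMM scaling factors) in starburst nuclei at 3 months and 1976, 963 and 334 at 18 months. The comparator had 8.76 to 79.6. Every starburst library was above every comparator library, with a log2 difference of 4.84 ± 0.31 (SE, n = 6 libraries, adjusted p = 4.68e-15 by edgeR). Isl1, the LIM-homeodomain factor, stood at 361, 304 and 345 normalised CPM at 3 months and at 301, 255 and 50.1 at 18 months, against 7.28 to 59.0 in the comparator. It was higher in 5 of 6 libraries, all but 18-month replicate 3, where starburst nuclei had 50.1 and the comparator 59.0 (log2 3.57 ± 0.30, adjusted p = 6.96e-12 by edgeR). Sox2, a transcription factor of progenitors, glia and starburst cells, was higher at 39.9 ± 8.97 against 5.57 ± 4.90 normalised CPM (SD, n = 6 libraries each; log2 2.65 ± 0.54).

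The RNA around Sox2 was far more abundant than that of Sox2 itself. Sox2ot, a long noncoding RNA whose span (chr3:34104270-34682619, plus strand, mm10) holds Sox2 on the same strand, stood at 2055, 892 and 451 normalised CPM at 3 months and at 1549, 1087 and 350 at 18 months. In the comparator it ran from 0 to 110, so no library overlapped (log2 5.43 ± 0.43, adjusted p = 1.43e-12 by edgeR). It had a UMI in 82.1% of starburst nuclei and in 4.05% of the comparator. Gm38505, on the opposite strand inside Sox2ot, was higher as well, at 411 ± 313 against 3.43 ± 3.67 normalised CPM, in 5 of 6 libraries, with none in 18-month replicate 3. It was chosen after its value was seen, and UMIs of overlapping genes may be divided unevenly between them.

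Of the starburst identity list, 8 of 16 genes were tested, and 3 were higher (Megf11, Isl1 and Sox2) and 1 lower. Over all genes tested, 7.22% were higher and 8.4% lower. The lower gene was Meis2, a homeodomain factor of many amacrine types, at 334 ± 84.7 against 1273 ± 250 normalised CPM (log2 -1.92 ± 0.19, lower in 6 of 6 libraries). Pax6, Tfap2a, Tfap2b and Six6 did not pass the threshold, with log2 differences of -0.46, -0.44, 0.03 and 0.29. Of the cholinergic list, 3 of 9 genes were tested, since Chat, Slc18a3 and Slc5a7 belong to the rule and Ache, Bche and Colq were too low. Prima1, which anchors acetylcholinesterase in the membrane, was higher at 144 ± 81.7 against 20 ± 3.87 normalised CPM (log2 2.75 ± 0.26, higher in 5 of 6 libraries). Acetylcholinesterase itself, Ache, had 15 UMIs in all starburst nuclei together. Chka and Slc44a1, of choline metabolism and uptake, stood at log2 -0.28 ± 0.21 and 0.07 ± 0.19 and did not pass.

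The 20 named genes with the largest increases included Col25a1, Adamts18, Pdgfc and Igfbp7. Col25a1, a transmembrane collagen, stood at 1995, 2001 and 1405 normalised CPM in starburst nuclei at 3 months, at 2236, 2320 and 818 at 18 months, and at 35.0 to 205 in the comparator. It was the most abundant of the 20, with no overlap between the kinds of nuclei (log2 4.29 ± 0.26, adjusted p = 2.82e-15 by edgeR). Adamts18, a secreted metalloprotease, had the smallest adjusted p of the 20 (3.08e-17 by edgeR, log2 4.31 ± 0.23). It stood at 217 to 610 normalised CPM against 16.5 to 51.3. Pdgfc, a platelet-derived growth factor, and Igfbp7, a secreted binding protein of insulin-like growth factors, were higher by log2 5.01 ± 0.41 and 4.12 ± 0.29, each in 6 of 6 libraries.

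The 20 also held Rgs6, Kcnk2, Hmga2, Slc24a4 and Myo5b. Rgs6, which speeds the shut-off of G proteins, stood at 2064, 1783 and 822 normalised CPM at 3 months and at 2367, 2474 and 1101 at 18 months, against 41.5 to 323 (log2 3.76 ± 0.25, no overlap). Kcnk2, a background potassium channel gated by stretch and lipids, stood at 33.4 to 274 against 3.12 to 18.3 (log2 4.12 ± 0.29). Hmga2, an architectural chromatin protein best known from embryonic cells and tumours, stood at 50.1 to 262 against 0 to 7.70 (log2 5.31 ± 0.35). It had no UMI in the glycinergic amacrine nuclei, the third kind compared. Slc24a4, a sodium, calcium and potassium exchanger, and Myo5b, a vesicle motor, were higher by log2 3.81 ± 0.38 and 4.66 ± 0.30. Lmo7, Moxd1, Cmtm8, Siah3, Clic4, Fhad1, Fam184b and Tmem132cos, the antisense transcript of Tmem132c, completed the 20, with log2 differences from 3.56 to 5.39. Without stated strand use in counting, Tmem132cos cannot be told apart from Tmem132c. Of the 17 of these genes with a RefSeq promoter window, 10 held TAAT and 4 held ACAAAG, beside 58.5% and 18.6% of 27025 genes. Among abundant genes, the splicing factor Rbfox1 stood at 8679 ± 2889 against 2252 ± 461 normalised CPM (log2 1.89 ± 0.17, chosen after its value was seen).

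**Figure D2:**
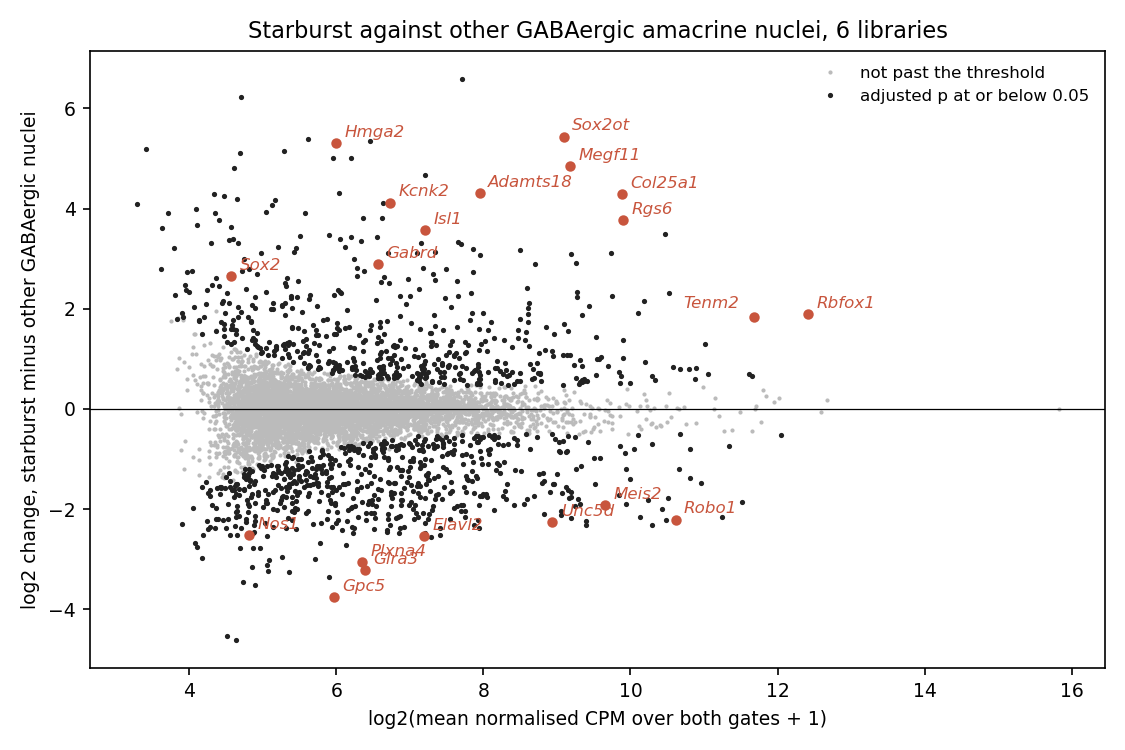
Log2 difference between starburst and other GABAergic amacrine nuclei (vertical axis) against the mean level (horizontal axis, log2 of normalised CPM plus 1) for the 7379 genes tested, with 1153 past the threshold in black and genes named in the text in colour. Hmga2, Sox2ot and Megf11 lie highest of the labelled genes and Gpc5 lowest.

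Some genes were lower in starburst nuclei than in the comparator. Glra3, a glycine receptor subunit, stood at 0, 43.5 and 0 normalised CPM at 3 months and at 0, 26.2 and 50.1 at 18 months, against 99.9 to 215 in the comparator. It was lower in 6 of 6 libraries (log2 -3.21 ± 0.36, adjusted p = 3.79e-09 by edgeR), and about as much lower against glycinergic nuclei (-3.20). Gpc5, a heparan sulphate proteoglycan of the cell surface, had 5 UMIs in all starburst nuclei and 363 in the comparator (log2 -3.76 ± 0.46). Plxna4, a semaphorin receptor, had 14 against 546 UMIs (log2 -3.07 ± 0.32). Elavl2, a neuronal RNA-binding protein, stood at 0 to 60 against 149 to 429 normalised CPM (log2 -2.54 ± 0.28). Nos1, the neuronal nitric oxide synthase of another amacrine type, had 5 against 155 UMIs (log2 -2.52 ± 0.53). The other 15 of the 20 named decreases, from log2 -3.36 (Kif26b) to -2.47 (Ptpro), included the growth factor Hgf, the Wnt receptor Ror1 and the cadherins Cdh7 and Pcdh11x. All 20 were lower in 6 of 6 libraries, and no starburst library exceeded 100.1 normalised CPM in any of them.

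The level of RNA from other cells was compared beside these genes. Markers of rods, the most abundant retinal neurons, summed to 4158 to 11893 CPM in starburst and 4383 to 9502 CPM in comparator nuclei. Markers of microglia were higher in starburst nuclei in 6 of 6 libraries (136 to 931 against 69.0 to 173 CPM), and nearly all of that came from P2ry12. Without P2ry12 the other 5 microglia markers summed to 0 to 92.2 CPM against 37.9 to 84.3, higher in 3 of 6 libraries, and Csf1r was at 0. P2ry12 and P2ry14 lie inside Med12l on the opposite strand (Med12l at chr3:59005825-59318682), and all of them were higher in starburst nuclei, by log2 3.08 ± 0.21, 2.91 ± 0.19 and 3.09 ± 0.20. They were named after their values were seen. Markers of horizontal cells summed to 181 to 375 against 97.4 to 211 CPM, with Lhx1 at 0 by the rule and with Sept4 and Calb1 leading, at 65 and 53 UMIs. The part of these markers in the results was not tested.

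**Figure D3:**
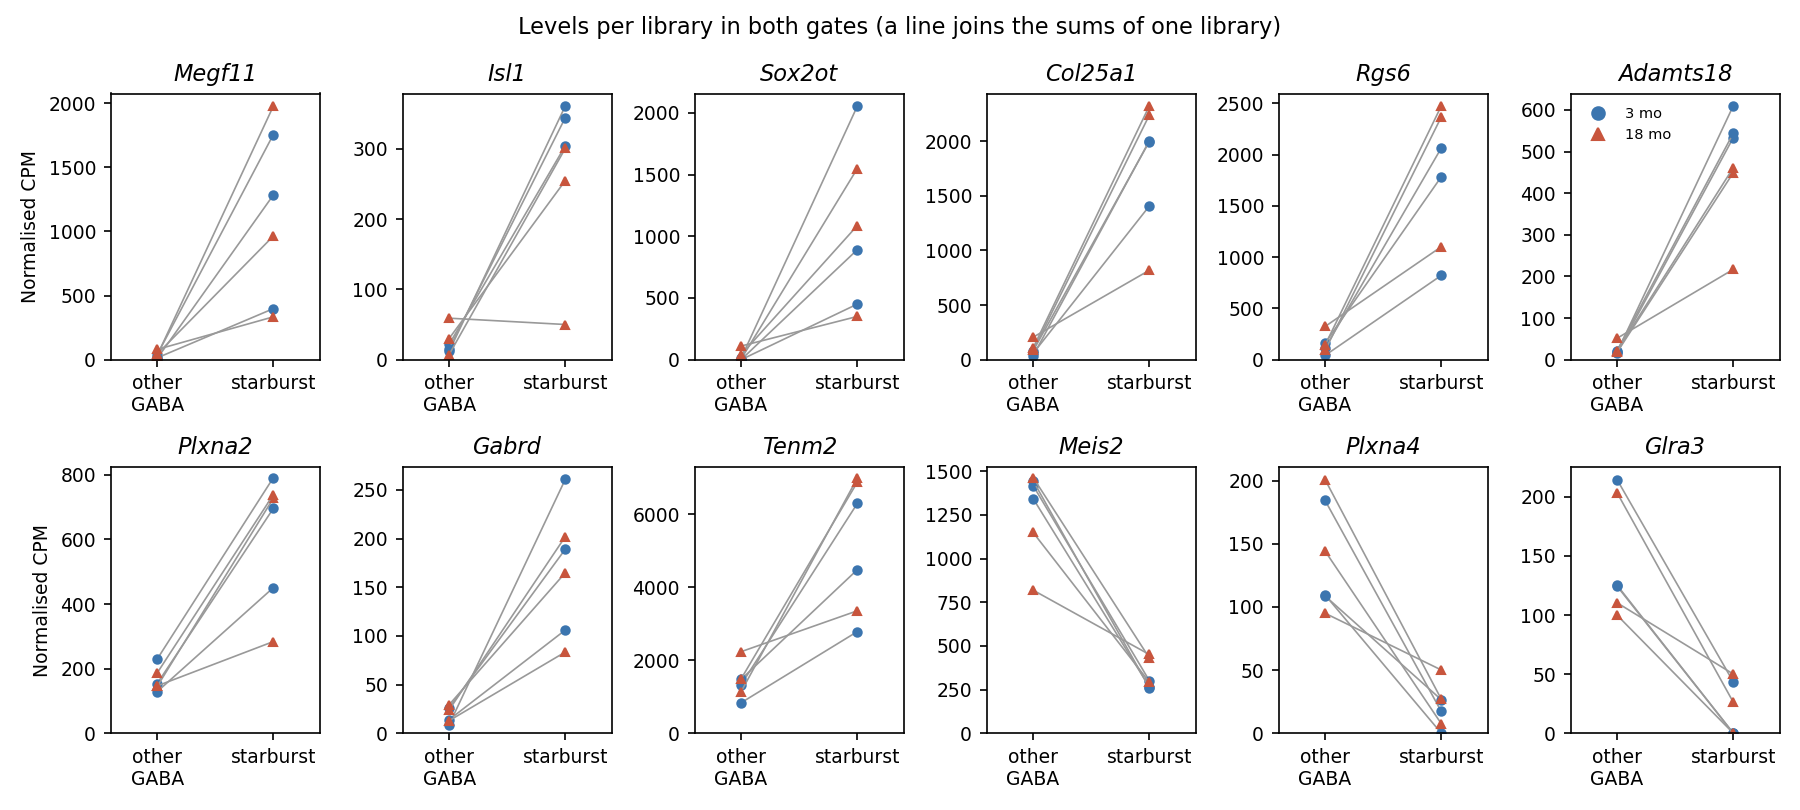
Normalised CPM (vertical axis, linear, from 0) of 12 genes in other GABAergic and starburst nuclei, with a line joining both sums of 1 library, circles for 3 and triangles for 18 months. Megf11, Col25a1 and Rgs6 rise in every library, Isl1 in 5 of 6, and Meis2, Plxna4 and Glra3 fall in 6 of 6.

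Guidance and adhesion genes that set the layering of amacrine dendrites split in both directions. Of the 27 members tested, 5 were higher and 14 lower, beside 7.22% of all genes higher and 8.4% lower. Their median log2 difference was -0.71 against -0.02 over all genes. Plxna2, the semaphorin receptor known for separating the starburst bands, stood at 615 ± 201 against 165 ± 36.9 normalised CPM (SD, n = 6 libraries; log2 1.89 ± 0.17, no overlap). Its partner Sema6a was lower, at 185 ± 92.6 against 292 ± 64.5 (log2 -0.55 ± 0.19). Tenm2, a teneurin of synaptic matching, was among the most abundant genes of starburst nuclei at 5129.8 ± 1841 against 1417 ± 469 (log2 1.84 ± 0.19). Cntn5, an immunoglobulin adhesion protein, was higher by log2 0.65 ± 0.21. Robo1, a Slit receptor, stood at 570 ± 314 against 2559 ± 562 (log2 -2.21 ± 0.23). Unc5d, a netrin receptor, Tenm1 and Dscam, a protein of self-avoidance, were lower by log2 -2.26 ± 0.22, -2.10 ± 0.22 and -2.05 ± 0.23.

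Against glycinergic amacrine nuclei part of this order turned. Robo1 and Tenm1 were then higher in starburst nuclei, by log2 1.49 (adjusted p = 3.47e-05 by edgeR) and 1.06 (adjusted p = 0.000741 by edgeR). Plxna2 and Tenm2 remained higher, by 2.15 and 2.27, and Unc5d remained lower, by -0.96. The glycinergic fit tested 3867 genes, of which 507 were higher (13.1%) and 420 lower (10.9%), or 24% in all. Of the 1153 genes past the threshold against the GABAergic nuclei, 753 were tested there, 652 differed in the same direction and 492 passed again. Both fits share the starburst sums.

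Ion channel genes showed more decreases than increases, and their counts stand beside 7.22% of all genes higher and 8.4% lower. Of 21 potassium channel genes tested, 3 were higher and 11 lower (median log2 -0.80). Kcnb2, a delayed rectifier, stood at 2443 ± 1017 against 499 ± 183 normalised CPM (log2 2.31 ± 0.23). Kcnc1, the Kv3.1 channel described in starburst dendrites, was higher by log2 1.01 ± 0.18, while Kcnc2 of the same family did not pass (0.02 ± 0.18). Kcnq3, Dpp6, Kcnh7 and Kcnip4 were lower by log2 -1.64, -1.67, -1.76 and -1.47. Of 16 calcium channel genes tested, 4 were higher and 8 lower (median -0.75). Cacna2d1, an auxiliary subunit, stood at 1754 ± 619 against 451 ± 76.7 and had no overlap (log2 1.92 ± 0.19). Cacna1a, the pore of P/Q-type channels, was higher by log2 1.04 ± 0.17, and the L-type pores Cacna1c and Cacna1d were lower by -1.25 ± 0.19 and -0.65 ± 0.17. Ryr2, a calcium release channel, was lower by log2 -1.66 ± 0.19. None of 7 chloride transport genes passed, including Slc12a5 (-0.39 ± 0.17) and Slc12a2 (-0.48 ± 0.36), the exporter and importer that set the response to GABA.

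Receptor genes passed in both directions, beside 7.22% of all genes higher and 8.4% lower. Of 21 glutamate receptor genes tested, 5 were higher and 9 lower. Grm3, a metabotropic receptor coupled to inhibitory G proteins, was higher (log2 1.34 ± 0.17), and the NMDA subunit Grin2a, the kainate subunit Grik1, the AMPA subunit Gria1 and the metabotropic Grm5 were among the lower, by -2.02 to -1.92. Gria4, at 1707 ± 187 against 1677 ± 334 normalised CPM, did not pass (log2 0.04 ± 0.16). Of 16 GABA and glycine receptor genes, 4 were higher and 7 lower. The higher genes included Gabrd and Gabra4, subunits that pair in receptors outside synapses. Gabrd stood at 83.4 to 261 against 8.76 to 29.2 normalised CPM (log2 2.89 ± 0.24, no overlap), and Gabra4 was higher by 2.82 ± 0.31. Gabra2 was higher by 0.56 ± 0.19. Gabrb2, Gabrg3 and Gabra3 were among the lower, by log2 -2.39, -1.93 and -1.90.

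Genes of acetylcholine reception, GABA handling, vesicle release and neuromodulation also passed in both directions or were lower. Their counts stand beside 7.22% higher and 8.4% lower over all genes. Of 4 acetylcholine receptor genes tested, Chrm2, a muscarinic receptor, was higher (195 ± 215 against 69.7 ± 24.2 normalised CPM, log2 1.05 ± 0.28, higher in 4 of 6 libraries). The muscarinic Chrm3 and the nicotinic Chrna7 were lower, by -2.04 ± 0.24 and -1.40 ± 0.40. Of 5 genes of GABA synthesis and transport tested, Abat, which degrades GABA, and Slc32a1, its vesicular transporter, were lower by log2 -1.14 ± 0.28 and -0.72 ± 0.21. Gad1 and Gad2 chose the comparator, so their levels, 340 ± 106 against 589 ± 121 CPM for Gad1, are a description. Of 22 vesicle release genes, 3 were higher and 7 lower. Sv2c, a synaptic vesicle glycoprotein, rose most, at 164 ± 63.7 against 30.1 ± 16.5 normalised CPM (log2 2.52 ± 0.27), followed by the active-zone proteins Rims1 (0.85 ± 0.17) and Bsn (0.73 ± 0.18). Of 8 neuromodulator genes, the peptide Npy was higher, in 4 of 6 libraries (1.32 ± 0.36), and the peptides Tac1 and Vip and the receptors Htr2c and Drd1 were lower, by -2.30 to -1.49.

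Counts of the lists of general cell biology stand beside 7.22% of all genes higher and 8.4% lower. None of 37 cytosolic ribosome genes, 29 nuclear respiratory chain genes or 11 fatty acid elongation and desaturation genes tested passed. Of 13 mitochondrially encoded genes 1 was lower (mt-Co2, log2 -0.51 ± 0.17), of 15 heat shock genes 1 was lower (Hsp90ab1, -0.70 ± 0.18), and of 13 clock genes 1 was higher (Per3, 0.61 ± 0.19, in 6 of 6 libraries), each a share near that of all genes. Of 17 cholesterol genes 4 were lower, among them the synthesis enzymes Msmo1, Hmgcs1 and Cyp51 (-1.03 to -0.73). Of 7 immediate-early genes 3 were lower (Egr1, Nr4a2 and Nr4a1, -2.68 to -1.59), from levels of 27.4 to 41.3 normalised CPM in the comparator.

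**Figure D4:**
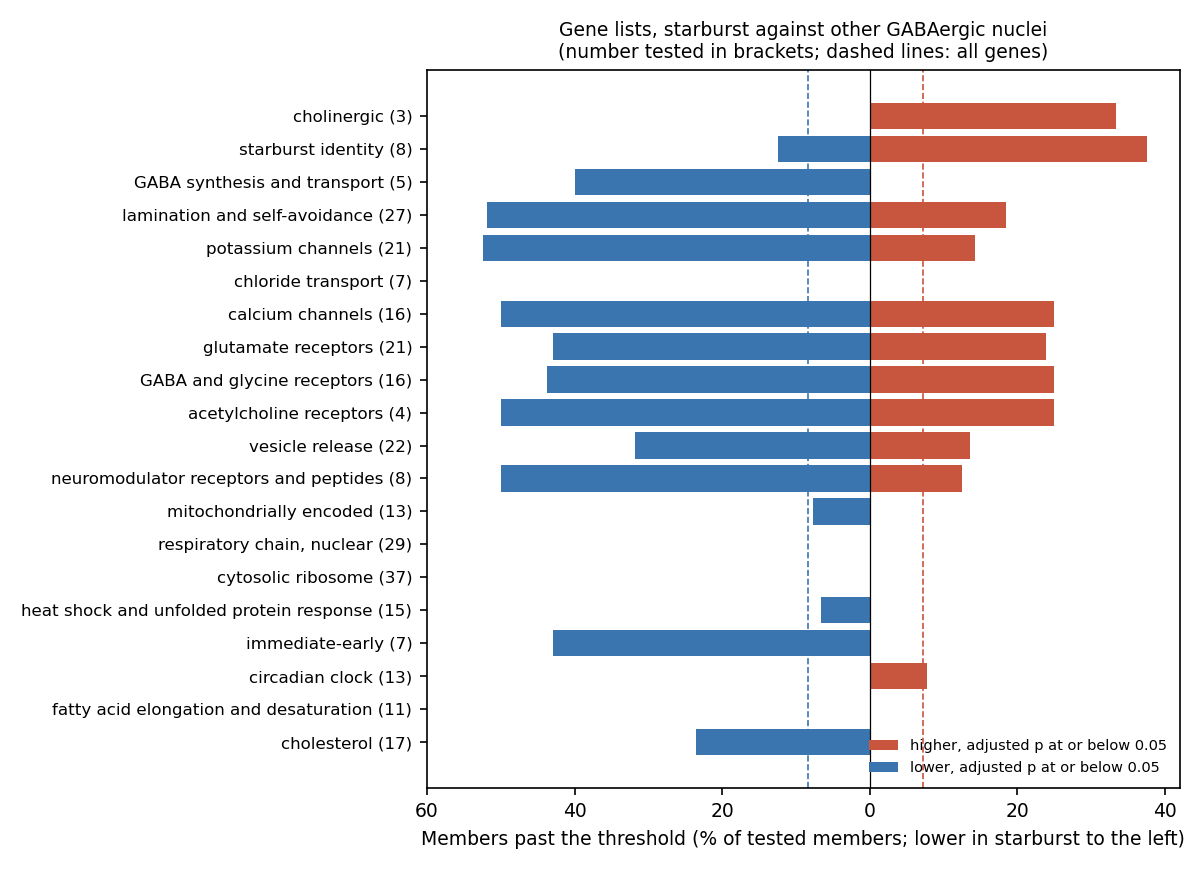
Percent of the tested members of each of the 20 gene lists that passed the threshold, higher in starburst nuclei to the right and lower to the left, with the number tested in brackets. Dashed lines mark all genes, 7.22% higher and 8.4% lower. The bars of the channel, receptor and lamination lists reach past both lines, and those of ribosome and nuclear respiratory chain are absent.

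The second comparison asked whether starburst nuclei were more or less frequent with age. The share of starburst nuclei among kept nuclei was 0.896%, 0.168% and 0.145% at 3 months, and 1.05%, 0.457% and 0.173% at 18 months. The ages overlapped, with means of 0.403% ± 0.427 and 0.561% ± 0.449 (SD, n = 3), a difference of 0.158 percentage points and a two-sided exact permutation p of 0.5. Paired by replicate number, 18 months was higher in 3 of 3 pairs, at an exact p of 0.25, the smallest that 3 pairs allow (3 against 3 unpaired cannot go under 0.1). Leaving out 18-month replicate 1 turned the difference to -0.0877 points, and leaving out 3-month replicates 2 or 3 left 0.0408 and 0.0289. As a share of starburst and other GABAergic nuclei together, the means were 13.4% ± 8.24 and 15.7% ± 4.91 (exact permutation p = 0.8). Within each library the exact interval was wide, for example 0.0693 to 0.266% in 3-month replicate 3.

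The third comparison asked which genes differed with age inside starburst nuclei. With age as the only term, 0 of 1938 genes tested (0%) passed the threshold by edgeR, 48 had an unadjusted p under 0.05, and DESeq2 also called 0. The ages did not overlap in 151 genes (7.79%). Libraries of the same replicate number deviated together most for replicate 1 (correlation 0.477, against 0.151 and 0.153 for replicates 2 and 3), as given under the processing. With the replicate number as a block, 14 of 2465 genes passed (0.568%), 5 higher (0.203%) and 9 lower (0.365%) at 18 months. Replicate 1 of both ages also shares a Cell Ranger release. With a term for release in place of the block, 0 genes passed by edgeR and 118 had p under 0.05. Within the 4 libraries of release 7.2.0, 0 of 985 genes passed and 46 had p under 0.05, and the 2 libraries of release 7.1.0 allow no test. The blocked count moved with the library left out: it was 6, 5 and 43 without 3-month replicates 1, 2 and 3, and 7, 4 and 46 without 18-month replicates 1, 2 and 3. Among nuclei with a UMI of Isl1, Gad1, Gad2 or Slc32a1 it was 0 of 2020 by edgeR, with 138 at p under 0.05. All 14 genes kept their direction in each of these fits, and Lrrc4c and Galntl6 passed in each of the 6 fits that left out a library. These are not 6 separate checks. With the block, the library left alone under its number carries no information on age. Leaving out either library of a number therefore rests on the same 2 pairs, and all of these fits reuse the data that made the calls.

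The 5 genes higher at 18 months in the blocked fit included adhesion, sorting and channel proteins of neurons and the glycosyltransferase Galntl6. Lrrc4c, a netrin-G ligand of synapses, had 694, 258 and 124 normalised CPM at 3 months and 1173, 1268 and 1789.5 at 18 months. The ages did not overlap (log2 1.86 ± 0.36, adjusted p = 0.0172 in the blocked edgeR fit). Sorcs1, a sorting receptor, stood at 83.6, 117 and 155 and then at 365, 313 and 569 (log2 1.89 ± 0.37, adjusted p = 0.0172 in the blocked edgeR fit). Galntl6 stood at 217, 46.9 and 92.8 and then at 383, 393 and 1643, the last from 18-month replicate 3 (log2 2.10 ± 0.43, adjusted p = 0.0215 in the blocked edgeR fit). Asic2, a proton-gated channel, was higher by 1.07 ± 0.25 without overlap, and Csmd3 by 2.12 ± 0.49 with overlap and with 2, 1 and 4 UMIs at 3 months. These values rest on few molecules at 3 months, with 11 and 4 UMIs of Lrrc4c and 2 and 3 of Galntl6 in replicates 2 and 3.

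All 5 of these genes were lower in starburst than in the other GABAergic nuclei, by log2 -2.17 for Lrrc4c, -1.90 for Sorcs1, -2.16 for Galntl6, -1.86 for Asic2 and -1.70 for Csmd3. The share of starburst nuclei with an Isl1 UMI was 59.6, 81.8 and 80% in the 3-month libraries and 61.3, 54.1 and 12% in the 18-month libraries. The part of nuclei of other types in the age differences was not tested.

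The 9 lower genes included photoreceptor and mitochondrial transcripts. Their calls depended on the library left out: without 3-month replicates 1 or 2 there were 1 and 0 lower calls, and without 18-month replicates 1 or 2 there were 1 and 0. The 1 was Il1rapl2 both times, so no photoreceptor or mitochondrial gene passed in those 4 fits, which rest on 2 sets of replicate pairs. Without replicate 3 of the 3-month or the 18-month libraries there were 30 and 31 lower calls. Rom1, a protein of photoreceptor discs, stood at 660.5, 1383 and 1268 normalised CPM at 3 months and at 245, 579.9 and 618 at 18 months without overlap (log2 -1.22 ± 0.26, adjusted p = 0.0231 in the blocked edgeR fit). Pdc, also a photoreceptor gene, was lower by -1.29 ± 0.30, with overlap. The 10 rod markers summed to 8163 to 11893 CPM at 3 months and 4158 to 8337 CPM at 18 months in starburst nuclei, and to 7914 to 9502 and 4383 to 8352 CPM in the other GABAergic nuclei. The age effect of Rom1 did not pass the test of its difference between the kinds of nuclei (log2 -0.15 ± 0.32, adjusted p = 0.999 by edgeR). mt-Co2, mt-Cytb, mt-Atp6 and mt-Nd3, subunits of the respiratory chain made in mitochondria, were lower by -1.56 to -0.99. Of the mitochondrially encoded list, 12 of 12 tested genes had lower means with age alone (median log2 -0.99, 0 past the threshold, 7 with p under 0.05). Without 3-month replicate 1 the median was -0.37. The median mitochondrial share of starburst nuclei was 2.5%, 0.989% and 0.922% at 3 months and 0.821%, 0.369% and 0.863% at 18 months. Also lower were Sgcz, a sarcoglycan, at -1.13 ± 0.25, and Il1rapl2, a synaptic receptor, at -2.55 ± 0.48. Il1rapl2 overlapped between the ages, at 92.0, 445 and 742 and then 8.60, 18.0 and 325 normalised CPM.

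Other genes with small p values and no overlap between the ages did not pass either fit. Fgf13 stood at 113 ± 55.4 and 389.7 ± 99.2 normalised CPM (SD, n = 3 each; log2 1.59 ± 0.42), and Immp2l at 194 ± 13.0 and 443 ± 102 (1.15 ± 0.35). On the lower side were mt-Nd4l (log2 -1.62 ± 0.45), Hmgn1 (-1.25 ± 0.41) and Hk2 (-1.33 ± 0.45). Of the other lists, 16 of 21 lamination genes and 8 of 11 potassium channel genes had higher means at 18 months (medians 0.27 and 0.54, against -0.01 over all genes), with none past the threshold. Isl1 and Megf11, the identity genes above, did not pass. Isl1 stood at 357 ± 42.5 CPM at 3 months and 194 ± 126 at 18 months without overlap, and Megf11 at 1169 ± 640 and 1053 ± 797 with overlap.

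The last comparison asked whether the change with age differed between starburst and the other GABAergic nuclei, by the interaction of age and kind of nucleus. Of 7379 genes tested, 6 passed by edgeR (0.0813%), all with a higher 18-month minus 3-month difference in starburst nuclei. Among them were Lrrc4c (log2 2.39 ± 0.45), Sorcs1 (2.26 ± 0.44), Cntnap5b (1.98 ± 0.40), Galntl6 (2.47 ± 0.51) and the noncoding Gm45321, each at an adjusted p of 0.0333. In this joint fit, whose scaling factors differ slightly from those above, Sorcs1 stood at 86.0, 109 and 133 and then 382, 326 and 584 normalised CPM in starburst nuclei. In the other GABAergic nuclei it stood at 1068, 1073 and 1164 and then 1204, 829 and 688. The means lay nearer to each other at 18 months, and starburst nuclei stayed below in every library. Lrrc4c in the other GABAergic nuclei stood at 3110, 5287 and 5511 and then 3299, 3286 and 3093, again above starburst nuclei in every library. Cntnap5b, a contactin-associated protein, was the exception in level. It stood at 112, 65.2 and 106 and then 337, 356 and 117 normalised CPM in starburst nuclei against 199, 333 and 233 and then 198, 199.9 and 110.4 in the other GABAergic nuclei, so starburst nuclei were lower in 3 of 3 libraries at 3 months and higher in 3 of 3 at 18 months. The level of 117 in 18-month replicate 3 rested on 7 UMIs and lay close to both 110.4 and the 112 of 3-month replicate 1.

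Gm45321 had 0 UMIs in all 3-month starburst libraries, which allows up to 25.1, 67.8 and 92.6 CPM there, and 23, 11 and 4 UMIs in the 18-month libraries (103, 41.2 and 66.7 normalised CPM, against 105 to 192 in the other GABAergic nuclei). Its fitted difference is therefore no bound on a fold. The number of calls changed with the setting. None passed with DESeq2, with at least 3 markers, without high Scrublet scores, or without 3-month replicate 2 or 3, while all 6 genes kept their direction under each of those settings. There were 3 calls without 3-month replicate 1. Without 18-month replicate 3 there were 12 calls and among nuclei with a UMI of Isl1, Gad1, Gad2 or Slc32a1 there were 7, with the 6 genes included in both.

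**Figure D5:**
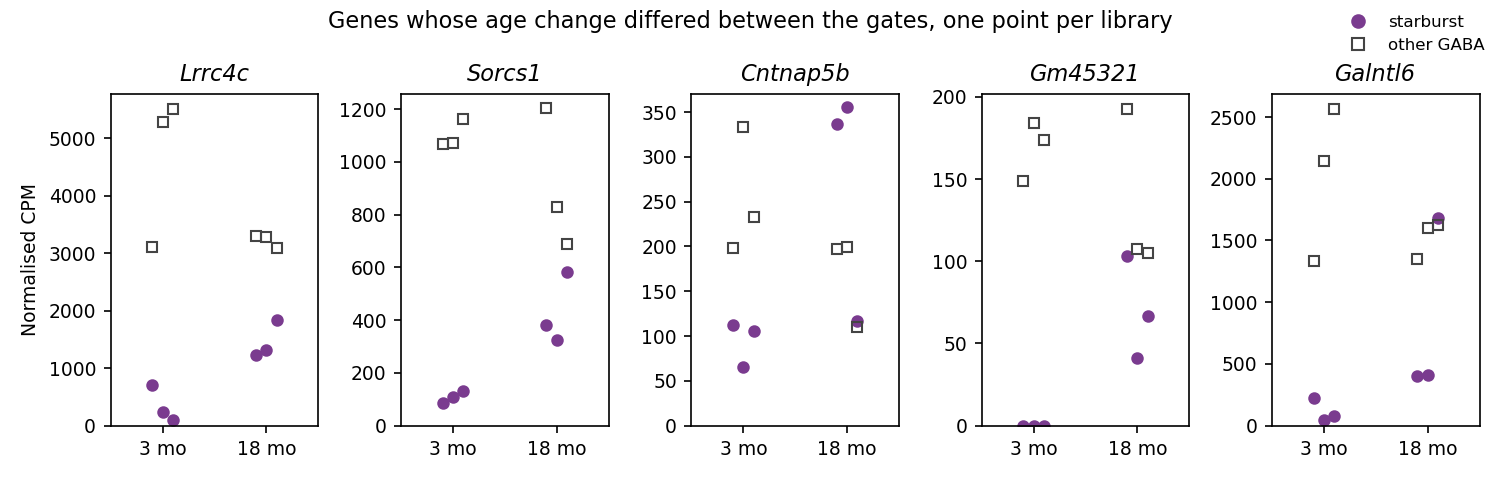
Normalised CPM (vertical axis, linear, from 0) of 5 genes whose age change differed between the kinds of nuclei, filled circles for starburst and open squares for other GABAergic nuclei, 1 point per library at 3 and 18 months. Starburst points are higher at 18 than at 3 months without overlap for all 5, and lie below the square of the same library in 6 of 6 libraries for Lrrc4c, Sorcs1 and Gm45321. For Cntnap5b the gap between the ages is narrow (117 from 7 UMIs in 18-month replicate 3, against 112 in 3-month replicate 1).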

How the data were processed

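Per the labels' protocols, nuclear RNA was profiled with 10x Genomics 3' chemistry (v3.1). The values deposited by the authors are whole-number counts of UMIs for each gene in each barcode. Per the file headers these came from Cell Ranger 7.1.0 (replicate 1 of both ages) and 7.2.0 (the others), and per the submitters' processing notes the build was mm10 and Seurat was used. Whether counting used strand is not given in the sources used here. Positions are from GENCODE M21 (32235 of 32285 identifiers matched). The lowest and highest totals per library were 15905689 and 29340705 UMIs.

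The members, the 20 gene lists (390 genes) and the tests were chosen with earlier results of these data known. Counts were summed per library and kind of nucleus and tested in R 4.3.3 by quasi-likelihood (edgeR 4.0.16 with limma 3.58.1), after TMM scaling and filterByExpr, at a threshold of 0.05 on p-values adjusted by Benjamini-Hochberg over all genes tested. The 15 genes of the rule and those of the comparator's choice were left out of results between kinds of nuclei. Glycinergic nuclei (386) had at least 2 Slc6a9 UMIs and none of Gad1, Gad2 or the 6 markers. The comparison of kinds of nuclei had a term per library, and DESeq2 1.42.0 was an alternative. The scripts were tested on simulated data. Shares used exact permutation tests and exact binomial (Clopper-Pearson) 95% intervals, which cover counting error only. Doublets were not removed. Nuclei with the highest Scrublet scores (scanpy 1.11.5, 0.8% per 1000 nuclei), among them 3, 0, 0, 4, 11 and 3 starburst nuclei in library order, were left out as an alternative. No starburst barcode was shared between libraries, and 11 to 74 barcodes were shared per pair over all.

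The labels do not say what a replicate number marks. Deviations from the age means correlated at 0.477, 0.151 and 0.153 between libraries of the same number. Between libraries of different numbers they ran from -0.283 to 0.106. Replicates 2 and 3 thus lay little above the highest of these, and whether the number marks a pairing was not tested. The fit with the number as a block stands beside the age result because each same-number value was over 0.1.

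Genes were named by rule, without gene models lacking a proper name and without sex-linked transcripts. Between kinds of nuclei these were the 20 largest log2 differences per direction past the threshold with at least 50 CPM in the higher kind. For age they were the 6 smallest p per direction without overlap at 20 CPM or more. For the interaction they were the 6 smallest p, Gm45321 included because it passed. Added were the genes of the cholinergic and identity lists and up to 6 members of each other list. Outside the rule, and chosen after their values were seen, are the genes called by the blocked fit, Gm38505, Rbfox1, Med12l, P2ry12, P2ry14, Sema6a, Cntn5, Dscam, Kcnc1, Kcnc2, Cacna1d, Gria4 and Gabra2. Some genes that the rule names are not reported here. A planned fit dividing starburst nuclei by Fezf1 was not made, since 3 nuclei held a UMI.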

Additional observations from a re-analysis of the deposited data

Results flagged for a closer look

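The change with age differed between starburst and other GABAergic amacrine nuclei, by the interaction test of edgeR, in Lrrc4c (log2 2.39), Sorcs1 (2.26), Cntnap5b (1.98), Galntl6 (2.47) and Gm45321 (a fitted 7.83, which depends on 0 UMIs in the 3-month starburst libraries and is no bound). Each had an adjusted p of 0.0333 by edgeR, and over the alternatives the smallest adjusted p of the whole test ran from 5.82e-11 (without 18-month replicate 3) to 0.971 (at least 3 markers). In 3-month replicates 2 and 3 the starburst sums held 11 and 4 UMIs of Lrrc4c, 5 and 5 of Sorcs1, 3 and 4 of Cntnap5b, and 2 and 3 of Galntl6.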

How the results depend on the processing

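The difference between starburst and other GABAergic nuclei gave 1153 genes, 808 to 1280 when each library was left out in turn, 892 with DESeq2 and 1050 over a shared range of UMIs. It gave 550 with at least 3 markers and 589 with no replicate block (no library term, chosen after seeing the data), and of the 863 of the 1153 genes tested in the latter, all kept their direction and 588 still passed. Without filtering or with RLE factors there were 1309 and 1182, and 1128 among nuclei with a UMI of Isl1, Gad1, Gad2 or Slc32a1 (also chosen after seeing the data). Among genes named here as lower against the GABAergic nuclei, Robo1 (1.49) and Tenm1 (1.06) were higher against glycinergic nuclei and passed there. Others had a positive log2 difference there but did not pass by edgeR. They included Meis2 (0.31, adjusted p = 0.275), Chrm3 (0.55, adjusted p = 0.264), Syn3 (0.49, adjusted p = 0.115) and Cacna1c (0.0036, adjusted p = 0.998). The cause was not tested. Syn3 was lower against the GABAergic nuclei by log2 -0.59.

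The age comparison gave 0 genes alone, 0 in each leave-one-out fit, 14 with the replicate block, 1 with at least 3 markers (of 182 tested, lower) and 1 with no filter on low counts (Galntl6, log2 2.54). With the replicate block and 1 library left out (chosen after seeing the data), it gave 6, 5 and 43 genes without 3-month replicates 1, 2 and 3, and 7, 4 and 46 without 18-month replicates 1, 2 and 3. Blocked fits without either library of the same number share their information on age.

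The interaction gave 6 genes, 0 to 12 in the leave-one-out fits, 0 with at least 3 markers, 0 without high Scrublet scores, 0 with DESeq2, 9 at a mitochondrial limit of 2.5% and 15 with no filter on low counts. From 3 markers to no filter, in that order, 269, 305, 136, 411 and 614 genes had an unadjusted p under 0.05, against 343.

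The age difference in the share of starburst nuclei ran from -0.0877 to 0.404 points in the leave-one-out settings, and was -0.0877 without 18-month replicate 1. It was 0.197 after thinning nuclei to 1500 UMIs (exact permutation p = 0.6). Thinning left out nuclei with fewer UMIs, so that for example 4158 of 14462 kept nuclei of 18-month replicate 3 entered. The Fezf1 share covered only nuclei that met the rule with Fezf1 left out of the markers, and rested on 1 nucleus (difference -0.709 points, exact permutation p = 1). In 18-month replicate 1, 60 of 62 starburst nuclei entered it. Over all starburst nuclei, Fezf1 stood at 8.38 CPM in 3-month replicate 1, 8.70 CPM in 18-month replicate 1 and 0 elsewhere. Summed by age, depth limits the 3-month libraries more, whose starburst sums held 195952 UMIs together, so that a count of 0 allows up to 15.3 CPM over them.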
